A study of Mus musculus with 12 samples.

Results

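Matrix metalloproteases (MMPs) and their tissue inhibitors (TIMPs) were measured in whole tibialis anterior (TA) muscle of mice after cardiotoxin injury, with and without amphiregulin (AREG). The set held 10 genes, the proteases Mmp2, Mmp3, Mmp8, Mmp9, Mmp12 and Mmp14 and the inhibitors Timp1, Timp2, Timp3 and Timp4, out of 19752 genes that had a probe cluster of their own on the array. Members were found by gene symbol, and where a gene had several clusters the cluster was to be chosen by its mean log2 intensity over the 12 arrays. Each member had exactly 1 cluster, so no measured value chose between clusters here. All 10 entered every test, and no filter on low values was applied.

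The mice were C57BL/6 and 8 weeks old, their TA muscle was injured with cardiotoxin on day 0, and all of them received diphtheria toxin every other day, including the mice without the toxin receptor. Foxp3-DTR+ mice carry a diphtheria toxin receptor under the control of Foxp3, the transcription factor that defines regulatory T cells (Tregs), so that the toxin can deplete these cells. Foxp3-DTR- mice lack it. AREG, an epidermal growth factor receptor ligand, or phosphate-buffered saline (PBS) was given into the muscle on day 0 and into the peritoneum every other day until dissection. The 12 arrays formed 4 groups of 3: day 4 Foxp3-DTR- with PBS, day 4 Foxp3-DTR- with AREG, day 8 Foxp3-DTR+ with PBS and day 8 Foxp3-DTR+ with AREG. Day and genotype changed together, so the effects of time and of Treg depletion cannot be told apart in any comparison across days. Nothing in the labels ties an array to its own mouse. The p-values therefore measure the spread between these arrays, which may be technical in part.

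MMPs are zinc-dependent endopeptidases that cut collagens, elastin, laminins, proteoglycans and many cell surface proteins, and most are made as inactive proenzymes. TIMPs bind the active site of MMPs and, in the case of TIMP3, also of several ADAM proteases. In injured muscle, macrophages, fibroblasts and muscle precursor cells make these enzymes while the matrix around the fibres is broken down and rebuilt.

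The arrays carried the defining transcripts of muscle. Acta1, the skeletal actin, lay between 13.77 and 13.93 log2 intensity on all 12 arrays, and Ckm, the muscle creatine kinase, between 13.61 and 13.86. Foxp3 gave no check of the depletion. It measured 6.67, 6.52 and 6.51 log2 units with PBS on day 4 and 6.51, 6.49 and 6.65 with PBS on day 8, a difference of -0.02 ± 0.11 (SE; limma adjusted p = 0.955), and groups are therefore named by their labels. The gene for AREG itself had no cluster of its own and was not analysed here. The array medians ranged from 133.7 to 143.2 intensity units. The narrowest interquartile ranges were those of the day 4 arrays numbered 1, at 2.19 log2 units with AREG and 2.37 with PBS, against 2.5 to 2.72 on the other arrays. The third day 8 AREG array stood apart from the other 2 of its group in several members. Many member results and list counts, though not all, are also given without these arrays. In bulk tissue, fewer cells of a type and less RNA per cell cannot be told apart.

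Promoter windows are shown for the 2 MMPs of the set with a match to AP-1 and for Mmp13, a collagenase outside the set. Those of the inhibitors Timp1, which fell with AREG on day 4, and Timp4, which rose, are shown beside them. The windows of the other members are not printed. AP-1 is a transcription factor that growth factor signalling activates, and a site for it close to the start of transcription is a textbook feature of several MMP genes. Each window holds the 120 bases before an annotated start, taken from RefSeq on GRCm38.p6 and written 5′ to 3′ on the gene's strand, with the letters TGACTCA or its reverse complement TGAGTCA in capitals. The array values have no stated build and were joined to these entries by symbol.
Mmp12, second annotated start, chr9:7347254-7347373 (+): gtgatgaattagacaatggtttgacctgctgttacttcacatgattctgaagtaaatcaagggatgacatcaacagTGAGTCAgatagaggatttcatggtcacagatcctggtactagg
Mmp3, chr9:7445702-7445821 (+): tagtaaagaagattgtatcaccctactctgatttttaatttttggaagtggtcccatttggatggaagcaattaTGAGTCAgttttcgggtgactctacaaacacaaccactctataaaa
Mmp13, chr9:7272394-7272513 (+): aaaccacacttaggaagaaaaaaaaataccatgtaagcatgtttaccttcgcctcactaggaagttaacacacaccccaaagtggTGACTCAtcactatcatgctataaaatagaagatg
Timp1, chrX:20870046-20870165 (+): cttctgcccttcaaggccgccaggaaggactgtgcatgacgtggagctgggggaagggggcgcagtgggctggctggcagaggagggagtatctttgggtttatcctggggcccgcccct
Timp4, chr6:115252206-115252325 (-): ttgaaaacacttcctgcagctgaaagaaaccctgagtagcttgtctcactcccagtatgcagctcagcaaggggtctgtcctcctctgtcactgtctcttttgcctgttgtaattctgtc

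The table of promoters held 9 entries for 8 of the 10 members, with 2 for Mmp12. Within the 250 bases before the start, the AP-1 letters occurred 46 to 40 bases before the start of Mmp3, 44 to 38 bases before the second start of Mmp12 and 35 to 29 bases before the start of Mmp13. No match was found before the first start of Mmp12 or before those of Mmp8, Mmp14, Timp1, Timp2, Timp3 and Timp4. The same letters, on either strand, were present in the same window of 4.46% of 32851 promoters. These matches describe the letters only. Of the 3 genes with a match, Mmp12 and Mmp13 fell with AREG on day 4 and Mmp3 did not pass the test, with the values given below. Of the members without a match, Mmp14 and Timp1 fell as well, and Timp3 and Timp4 rose. A link between the letters and the change with AREG was not tested.

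**Figure D1:**
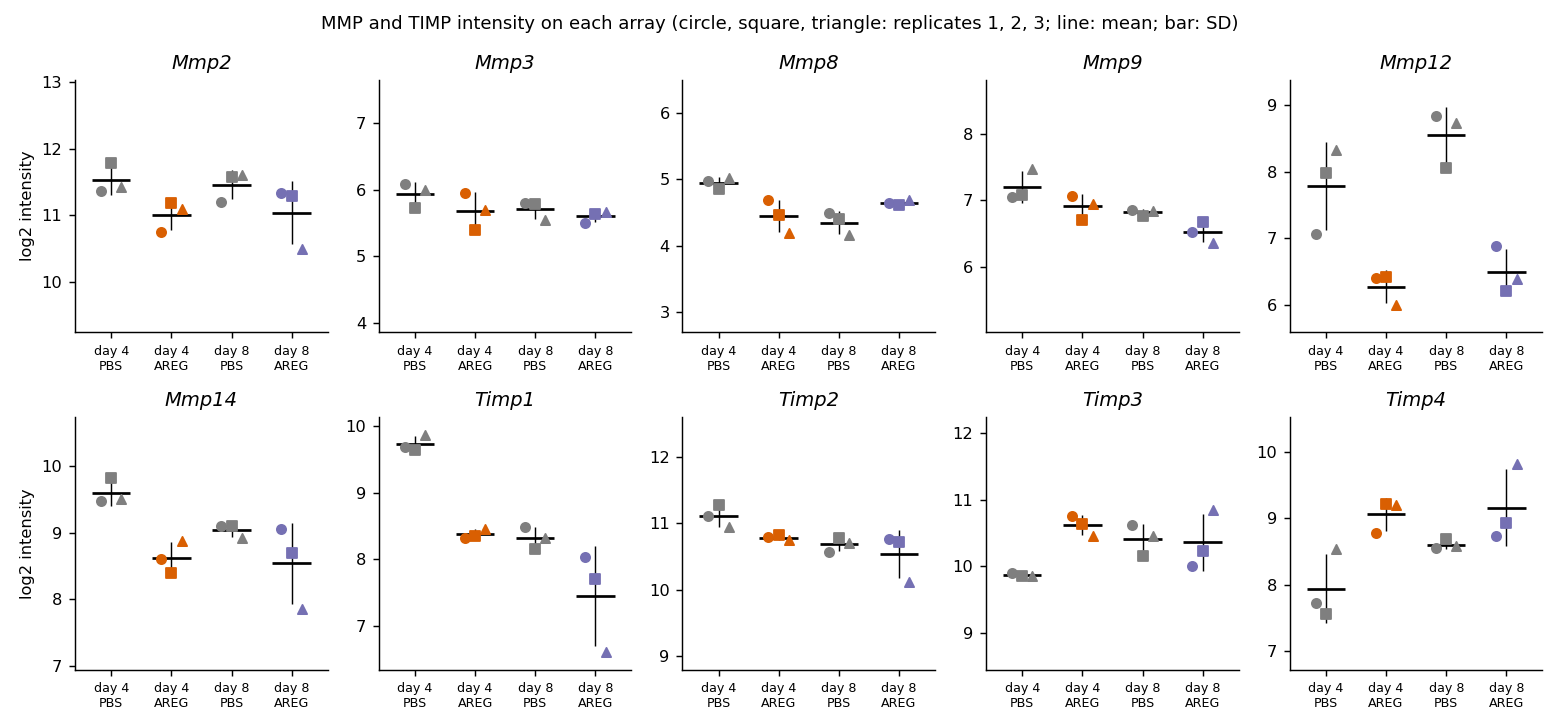
Log2 intensity of the 10 genes on each of the 12 arrays (vertical axis, log2 units; every panel spans the same number of units) by group (horizontal axis), with circles, squares and triangles for replicates 1, 2 and 3, a line for the mean and a bar for the SD (n = 3). The AREG arrays of Mmp12 lie below all PBS arrays on both days, from 5.99 to 6.88 against 7.06 to 8.84.

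On day 4, Mmp12, Timp1 and Mmp14 fell with AREG and Timp3 and Timp4 rose. Of the 10 genes, 5 passed a limma adjusted p of 0.05, 3 lower and 2 higher, against 2.9% of all genes tested (2.11% lower and 0.79% higher). The AREG and PBS arrays did not overlap for 8 of the 10, against 22.3% of all genes. The median difference of the 10 genes was -0.41 log2 units, beside 0.04 over all genes. Both called proteases were lower, and among the inhibitors Timp1 was lower while Timp3 and Timp4 were higher. The number of day 4 calls over all genes changed strongly when arrays were left out. Over all genes limma called 573, against 15 without AREG replicate 1, 9 without AREG replicate 3, 9 without PBS replicate 2 and 0 without both day 4 arrays numbered 1. It called 308 without AREG replicate 2, 228 without PBS replicate 1 and 418 without PBS replicate 3. Leaving out 1 day 8 array gave from 302 (AREG replicate 2) to 1336 (AREG replicate 3).

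Mmp12, the elastase of macrophages, measured 7.06, 7.98 and 8.33 log2 units on the day 4 PBS arrays and 6.41, 6.42 and 5.99 on the AREG arrays. Every AREG array lay below every PBS array, and the first PBS array was the lowest of its group. The fall was 1.52 ± 0.28 log2 units (SE), or 2.87-fold (limma adjusted p = 0.0198). The call was lost without AREG replicate 1 (adjusted p = 0.0654), AREG replicate 3 (0.0875) or PBS replicate 2 (0.147), while the difference stayed between -1.89 and -1.25 when any 1 of the 12 arrays was left out. Without both arrays numbered 1 it was -1.95 ± 0.28 (adjusted p = 0.0687).

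Mmp14 encodes MT1-MMP, the membrane-anchored collagenase that also activates the proenzyme of MMP2. Its values on day 4 were 9.48, 9.82 and 9.51 with PBS and 8.60, 8.39 and 8.87 with AREG. The groups were separated by more than their own spread. Mmp14 fell by 0.98 ± 0.23 log2 units, or 1.97-fold (limma adjusted p = 0.0347). The call was lost when any 1 of the 6 day 4 arrays was left out (adjusted p from 0.0544 to 0.221), and also without day 8 AREG replicate 2 (0.0501) or day 8 PBS replicate 1 (0.0517). The difference stayed between -1.10 and -0.87 when any 1 of the 12 arrays was left out.

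The gelatinases Mmp2 and Mmp9, which digest denatured collagen and basement membrane collagen, were not called on day 4. Mmp2 measured 11.36, 11.79 and 11.42 with PBS and 10.75, 11.19 and 11.10 with AREG, a difference of -0.51 ± 0.21 (adjusted p = 0.204). The groups did not overlap. Mmp9 measured 7.05, 7.08 and 7.47 with PBS and 7.07, 6.71 and 6.95 with AREG, so that the groups overlapped, and the difference was -0.29 ± 0.14 (adjusted p = 0.29).

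Mmp8, the neutrophil collagenase, and Mmp3, stromelysin-1, which activates other MMP proenzymes, had means over the 12 arrays of 4.60 and 5.73 log2 units, below the lower quartile of gene means at 5.93. Intensities of different clusters do not rank transcripts by abundance, but differences of clusters this dim are harder to resolve. Mmp8 measured 4.98, 4.85 and 5.02 with PBS and 4.69, 4.47 and 4.20 with AREG on day 4. The arrays did not overlap, and the difference of -0.50 ± 0.13 just missed the threshold (adjusted p = 0.0546). It passed after quantile normalisation, with array weights and without day 8 AREG replicate 3. The Mmp3 difference was -0.26 ± 0.15 with overlapping arrays (adjusted p = 0.42).

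Timp1 encodes a secreted inhibitor that is induced in inflamed and injured tissue. It measured 9.69, 9.65 and 9.87 with PBS and 8.32, 8.35 and 8.46 with AREG on day 4. The highest AREG array lay more than 1 log2 unit below the lowest PBS array. Timp1 fell by 1.36 ± 0.25 log2 units, or 2.56-fold (adjusted p = 0.0198). The call was lost without each of the same 3 arrays as for Mmp12, with an adjusted p of 0.068 without AREG replicate 1, 0.0756 without AREG replicate 3 and 0.139 without PBS replicate 2. The difference itself stayed between -1.40 and -1.29.

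Timp3, the inhibitor that binds to the matrix and also blocks ADAM17, went the other way. It measured 9.90, 9.85 and 9.85 with PBS and 10.75, 10.64 and 10.46 with AREG, a rise of 0.75 ± 0.18 log2 units or 1.69-fold (adjusted p = 0.0387). Timp4, an inhibitor made in heart, skeletal muscle and fat, measured 7.72, 7.56 and 8.53 with PBS and 8.77, 9.21 and 9.20 with AREG. It rose by 1.12 ± 0.26 log2 units or 2.17-fold (adjusted p = 0.037). All AREG arrays were above all PBS arrays for both genes, though the third PBS array of Timp4 lay close to the lowest AREG array.

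The calls of Timp3 and Timp4 were lost in many fits that left out 1 array. The differences themselves stayed between 0.69 and 0.83 for Timp3 and between 0.93 and 1.42 for Timp4. For Timp3, leaving out any 1 of the 6 day 4 arrays ended the call (adjusted p from 0.0752 to 0.205), as did leaving out day 8 AREG replicate 2 (0.0535) or day 8 PBS replicate 1 (0.0503). For Timp4 the call held without day 4 PBS replicate 3 (0.0197) and was lost without each other day 4 array (0.0718 to 0.231), and without day 8 AREG replicate 2 (0.0503), day 8 PBS replicate 1 (0.0538) or day 8 PBS replicate 2 (0.0515). It was also lost with a pseudocount of 32 (0.0651), as were the calls of Mmp14 (0.0547) and Timp3 (0.0571), and with trend and robust options in eBayes (0.0522). Timp2, which bridges MT1-MMP and the MMP2 proenzyme at the cell surface, measured 11.11, 11.28 and 10.94 with PBS and 10.79, 10.82 and 10.74 with AREG. Its arrays did not overlap, and the difference of -0.33 ± 0.15 was not called (adjusted p = 0.294).

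**Figure D2:**
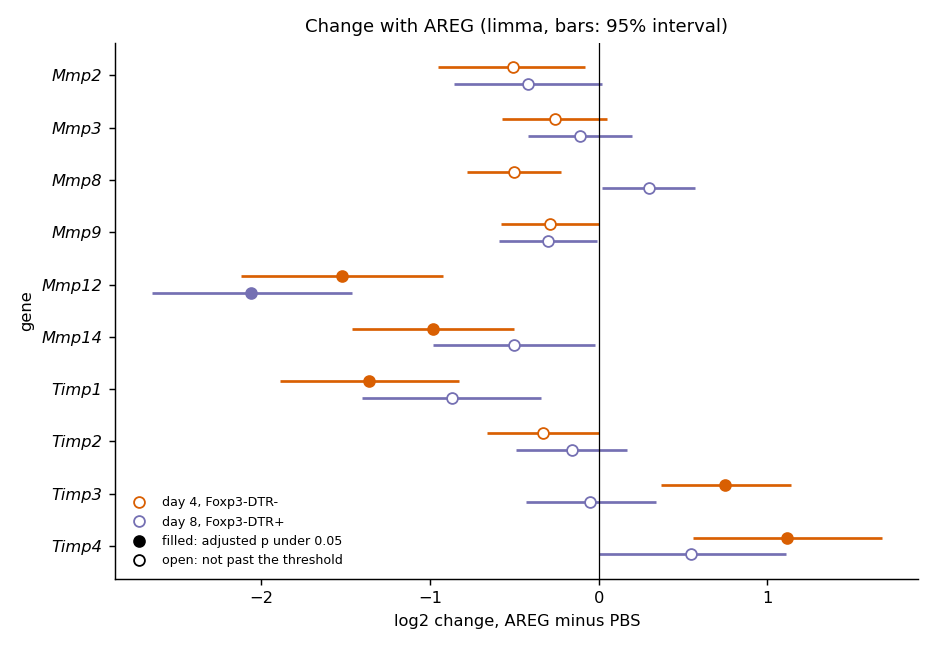
Difference in log2 intensity between AREG and PBS arrays (horizontal axis, log2 units) for each gene (vertical axis) on day 4 in Foxp3-DTR- mice and on day 8 in Foxp3-DTR+ mice, with 95% intervals from limma; filled points passed an adjusted p of 0.05. On day 4 the filled points are Mmp12, Mmp14 and Timp1 on the lower side and Timp3 and Timp4 on the higher side, and on day 8 the filled point is Mmp12, at -2.06.

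On day 8 in Foxp3-DTR+ mice, Mmp12 fell with AREG, and no other gene of the 10 was called. This 1 call of 10 stands against 0.00506% of all genes, since Mmp12 was the only one of 19752 to pass. The AREG and PBS arrays did not overlap for 5 of the 10, against 14.2% of all genes. The median difference was -0.23 log2 units, beside 0.01 over all genes.

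Mmp12 measured 8.84, 8.06 and 8.74 on the day 8 PBS arrays and 6.88, 6.20 and 6.39 on the AREG arrays. More than 1 log2 unit separated the lowest PBS array from the highest AREG array. The fall was 2.06 ± 0.28 log2 units or 4.16-fold (limma adjusted p = 0.0482). With the threshold this near, the call was lost without day 4 AREG replicate 1 (adjusted p = 0.281), 2 (0.109) or 3 (0.0638), day 4 PBS replicate 2 (0.113), day 8 AREG replicate 2 (0.177) or 3 (0.17), or day 8 PBS replicate 1 (0.59) or 3 (0.492), and with the replicate block (0.0663). The difference stayed between -2.30 and -1.91 over the fits that left out 1 array.

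Timp1 on day 8 measured 8.49, 8.16 and 8.32 with PBS and 8.04, 7.70 and 6.61 with AREG. All AREG arrays were below all PBS arrays, but the third lay more than 1 log2 unit under the next. The difference was -0.87 ± 0.25 (adjusted p = 0.599), and leaving out AREG replicate 3 brought it to the smallest size of any such fit, -0.45.

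The same array was the lowest of its group for Mmp2, Mmp14 and Timp2 and the highest for Timp3 and Timp4. Mmp14 measured 9.10, 9.10 and 8.92 with PBS and 9.05, 8.70 and 7.86 with AREG, with overlap and a difference of -0.50 ± 0.23 (adjusted p = 0.651). Mmp2 measured 11.20, 11.57 and 11.60 with PBS and 11.33, 11.29 and 10.49 with AREG, again with overlap. Without AREG replicate 3 the differences were -0.16 for Mmp14 and -0.14 for Mmp2.

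Timp4 measured 8.55, 8.69 and 8.58 with PBS and 8.73, 8.92 and 9.82 with AREG on day 8. The groups did not overlap, and the difference was 0.55 ± 0.26 (adjusted p = 0.654), or 0.22 without AREG replicate 3. Timp3 measured 10.62, 10.16 and 10.45 with PBS and 10.01, 10.23 and 10.85 with AREG. The groups overlapped, with AREG replicate 1 below and AREG replicate 3 above all PBS arrays. The Timp3 difference was -0.05 ± 0.18 (adjusted p = 0.965). The remaining genes differed by -0.11 (Mmp3), 0.30 (Mmp8), -0.30 (Mmp9) and -0.16 (Timp2), with adjusted p-values from 0.647 to 0.885. The Mmp8 and Mmp9 arrays did not overlap between the groups.

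Averaged over both days, 4 of the 10 genes were called, against 3.41% of all genes, with 3 lower (2.99% of all genes) and 1 higher (0.415%). Mmp12 fell by 1.79 ± 0.20 log2 units (adjusted p = 0.00183), Timp1 by 1.12 ± 0.18 (0.0122) and Mmp14 by 0.74 ± 0.16 (0.0242), and Timp4 rose by 0.84 ± 0.19 (0.0273). Mmp12 passed in all 21 alternatives run for this mean, Timp1 in 20, Mmp14 in 16 and Timp4 in 12. The call of Timp1 was lost without both day 4 arrays numbered 1 (adjusted p = 0.0668), and so were those of Mmp14 (0.0948) and Timp4 (0.0938). That of Mmp14 was also lost without day 4 AREG replicate 1 (0.0682), day 4 PBS replicate 2 (0.0895) or day 8 PBS replicate 1 (0.0623) or 3 (0.0629). That of Timp4 was also lost with a pseudocount of 32 (0.0518), without any of the day 4 AREG arrays (0.0519 to 0.0637), without day 4 PBS replicate 1 (0.052) or 2 (0.0996), or without day 8 PBS replicate 1 (0.066) or 3 (0.0726).

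Whether the AREG effect differed between the days was tested as the day 8 effect minus the day 4 effect. By limma, 0 of the 10 genes passed, beside 0% of all genes, and 2 of the 10 had an unadjusted p under 0.05, against 5.87% of all genes. With array weights, 3 passed. Mmp8 differed by 0.79 log2 units (95% interval 0.40 to 1.19, adjusted p = 0.557), with all AREG arrays below the PBS arrays on day 4 and above them on day 8. Timp3 differed by -0.80 (95% interval -1.34 to -0.26, adjusted p = 0.63). For Mmp12 the interval ran from -1.38 to 0.31, and for Timp1 from -0.27 to 1.24, both including 0.

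Between the PBS groups, Timp1 and the dim Mmp8 measured lower in day 8 Foxp3-DTR+ muscle than in day 4 Foxp3-DTR- muscle. These were 2 of the 10 genes, against 2.34% of all genes called (1.15% lower), and 7 of the 10 did not overlap, against 23.4%. Timp1 fell by 1.42 ± 0.25 log2 units or 2.67-fold (limma adjusted p = 0.00567), from 9.65 to 9.87 on the day 4 arrays to 8.16 to 8.49 on the day 8 arrays. The call held when any 1 array was left out, and was lost without both day 4 arrays numbered 1 (adjusted p = 0.0571). Mmp8 fell by 0.60 ± 0.13 or 1.51-fold (adjusted p = 0.0236), from 4.98, 4.85 and 5.02 to 4.49, 4.41 and 4.16. Its geometric means were 30.9 intensity units on day 4 and 20.4 on day 8, and only 7.9% of genes had a lower mean, so a difference this dim is hard to resolve. The call of Mmp8 was lost without day 4 PBS replicate 1 (0.0902), 2 (0.0668) or 3 (0.0773) or day 8 PBS replicate 2 (0.0623) or 3 (0.129), and with a pseudocount of 32 (0.0771).

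The other differences between the PBS groups were not called. They were 0.75 ± 0.28 for Mmp12 (adjusted p = 0.241), -0.56 ± 0.23 for Mmp14 (0.291), -0.42 ± 0.15 for Timp2 (0.228), 0.54 ± 0.18 for Timp3 (0.169), 0.67 ± 0.26 for Timp4 (0.271) and -0.38 ± 0.14 for Mmp9 (0.216). Mmp2 and Mmp3 differed by -0.07 and -0.22. T cell markers moved with this comparison. Their list joins general T cell genes with Foxp3, Il2ra, Ctla4, Ikzf2 and Icos, which are Treg or activation markers. Of 11 measured, 8 rose from day 4 to day 8 with PBS, and Foxp3 was not among them. Over all genes 2.34% were called in either direction, with 1.15% lower. Their summed intensity went from between 890 and 918 to between 1696 and 2589. Markers of regenerating fibres and myoblasts moved too, with 7 of 14 lower, against 1.15% of all genes, and a median of -1.04. Without both day 4 arrays numbered 1 these counts were 7 and 6, and without day 8 AREG replicate 3 they were 8 and 12. The part of either in the member differences was not tested.

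Between the AREG groups, limma called 0 of the 10 genes from day 4 to day 8, against 0.719% of all genes. At an unadjusted p under 0.05, which 10.3% of all genes reached, there were 2, Timp1 (-0.93 ± 0.25, adjusted p = 0.135) and Mmp9 (-0.39 ± 0.14, adjusted p = 0.295), and these were also the 2 whose arrays did not overlap, against 13.2% of all genes. With array weights 4 genes passed, and without day 8 AREG replicate 1 Timp1 passed. The comparisons across days use the same PBS or AREG arrays as the comparisons within days, so their values are not independent of each other. In order of group means, Mmp12 was highest with PBS on day 8 (8.55) and day 4 (7.79) and lowest with AREG on day 8 (6.49) and day 4 (6.27). The differences between days within a treatment did not pass the test, and PBS on day 4 was not tested against AREG on day 8. Timp1 was highest with PBS on day 4 (9.74), followed by AREG on day 4 (8.38) and PBS on day 8 (8.32), whose arrays overlapped, and lowest with AREG on day 8 (7.45).

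**Figure D3:**
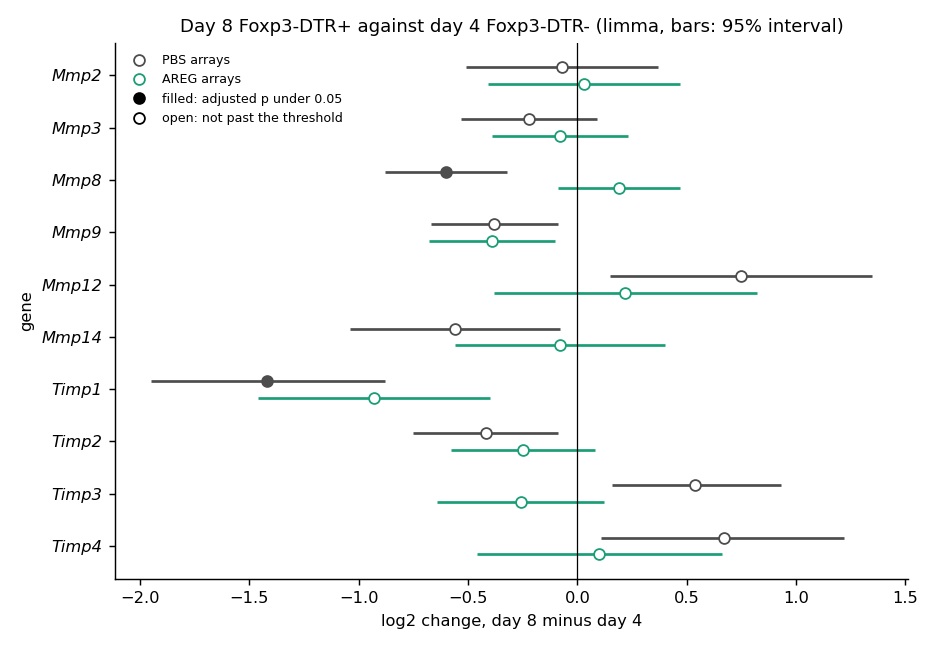
Difference in log2 intensity between day 8 Foxp3-DTR+ and day 4 Foxp3-DTR- arrays (horizontal axis, log2 units) for each gene (vertical axis), among PBS arrays and among AREG arrays, with 95% intervals from limma; filled points passed an adjusted p of 0.05. The filled points are Timp1 (-1.42) and Mmp8 (-0.60) among the PBS arrays.

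Macrophage markers moved with AREG as Mmp12 did on day 4. Of 18 markers, 11 fell on day 4, against 2.11% of all genes, and none rose. Their median was -1.05 log2 units, and their summed intensity was 8776 to 11746 with AREG against 19211 to 25114 with PBS. Without AREG replicate 1, and without both day 4 arrays numbered 1, none of the 18 was called, with medians of -1.04 and -1.12, and without PBS replicate 1 there were 8. Without day 8 AREG replicate 3 there were 17. Cd68, a lysosomal macrophage protein, fell by 1.42 ± 0.28 (limma adjusted p = 0.0251), and Lgals3, galectin-3, by 1.59 ± 0.29 (0.0198). Set against the day 4 PBS mean, Mmp12 lay at -1.39, -1.37 and -1.81 on the 3 AREG arrays and the median macrophage marker at -1.21, -0.86 and -1.18. On those arrays 6, 1 and 3 of the 18 markers lay lower than Mmp12. The part of the macrophage markers in the day 4 fall of Mmp12 was not tested.

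On day 8 Mmp12 lay below every macrophage marker, relative to the PBS mean, on each of the 3 AREG arrays. Mmp12 also lay low among the PBS arrays themselves, at -0.73 on day 4 PBS replicate 1, below all 18 markers, and at -0.49 on day 8 PBS replicate 2, with 1 marker below it. None of the 18 was called, their median difference was -0.55, and the summed intensity of 7352 to 19868 with AREG overlapped that of 17162 to 24176 with PBS. On AREG replicate 1 the median marker lay 0.05 above the PBS mean of the day while Mmp12 lay at -1.67. The 18 markers ran from -0.94 to 0.50 on that array. There 14 of them lay inside the range of the day 8 PBS arrays, 2 above it and 2, Trem2 and Gpnmb, below it. On AREG replicates 2 and 3 the median marker lay at -0.38 and -1.21 and Mmp12 at -2.35 and -2.15, with 15 and 18 of the markers below the PBS range. The part of the macrophage markers in the day 8 fall of Mmp12 was not tested.

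**Figure D4:**
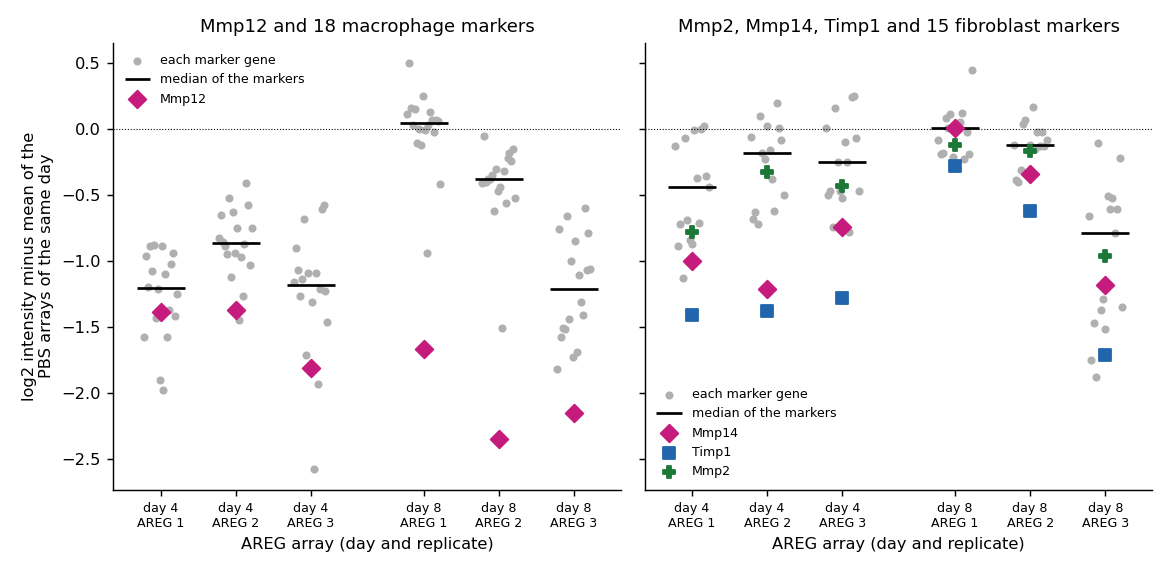
Log2 intensity on each AREG array minus the mean of the PBS arrays of the same day (vertical axis, log2 units) by array (horizontal axis), for Mmp12 with 18 macrophage markers and for Mmp2, Mmp14 and Timp1 with 15 fibroblast markers; grey points are marker genes and lines their medians. On day 8 AREG replicate 1 Mmp12 lies at -1.67 while the macrophage median lies at 0.05.

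Fibroblasts are a known source of MMP2, MMP14 and TIMPs in muscle. Of 15 fibroblast markers measured, 1 fell on day 4, against 2.11% of all genes, and none rose. Their median was -0.37, with summed intensities of 19822 to 23653 with AREG and 25159 to 29779 with PBS. On the 3 day 4 AREG arrays the median fibroblast marker lay at -0.44, -0.18 and -0.25 relative to the PBS mean. Timp1 lay at -1.41, -1.38 and -1.28, below all 15 markers on each array, and Mmp14 at -1.0, -1.21 and -0.74, with 1, 0 and 2 markers below it. Of the 18 macrophage markers, 6, 1 and 6 lay below Timp1, and 13, 2 and 15 below Mmp14. Of the 14 markers of regenerating fibres and myoblasts, 1, 0 and 4 lay below Timp1 and 7, 0 and 9 below Mmp14. On day 8 AREG replicate 3 the median fibroblast marker was at -0.79, Mmp2 at -0.96, Mmp14 at -1.18 and Timp1 at -1.71. That array was low in macrophage and fibroblast markers as well as in these genes.

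The neutrophil markers give the setting for Mmp8 and Mmp9, which neutrophils store in granules. None of the 14 neutrophil markers had a mean at or above the median level of all genes, and none passed on day 4 or day 8. For the mean over both days 1 was called lower, as was 1 on day 4 without day 8 AREG replicate 3. S100a8, a major neutrophil protein, lay between 4.87 and 5.80 on all arrays. Among the other marker lists on day 4, 3 of 11 adipocyte markers rose with AREG, Plin1 (perilipin) among them by 0.64 ± 0.16 (adjusted p = 0.0497), with a median of 0.57, and 1 of 16 mature fibre markers rose, with a median of 0.16. Markers of regenerating fibres and myoblasts were lower on day 4, 5 of 14 past the threshold with a median of -0.91, and 0 of 12 endothelial and 0 of 6 tendon markers passed, with medians of 0.30 and 0.27. Over all genes, 2.11% were called lower on day 4 and 0.79% higher. Without AREG replicate 1, and without both day 4 arrays numbered 1, none of the fibroblast, adipocyte, mature fibre or regenerating fibre markers was called on day 4. Without PBS replicate 1, 1 fibroblast and 4 regenerating fibre markers were. Without day 8 AREG replicate 3, 4 fibroblast, 5 adipocyte, 1 mature fibre and 10 regenerating fibre markers were. The part of these markers in the changes of Mmp14, Timp1, Timp3 and Timp4 was not tested.

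Among the other MMPs, 16 of 17 listed were measured. On day 4, 3 fell with AREG, against 2.11% of all genes, and none rose. The list median was -0.03 beside 0.04 over all genes, and none passed on day 8. Mmp13, the main interstitial collagenase of rodents, measured 8.23, 7.77 and 8.52 with PBS and 7.08, 7.03 and 7.63 with AREG on day 4, and fell by 0.93 ± 0.21 (limma adjusted p = 0.0334). The arrays did not overlap. Mmp19 fell by 1.05 ± 0.25 (0.0398) and Mmp23, a membrane-bound MMP, by 0.73 ± 0.16 (0.0324). None of the 16 passed on day 4 without AREG replicate 1 or without both day 4 arrays numbered 1, and 1 did without PBS replicate 1. On day 8 Mmp19 measured 8.02, 7.34 and 8.14 with PBS and 7.25, 7.13 and 6.70 with AREG, without overlap but not called (-0.81 ± 0.25, adjusted p = 0.599). Between the PBS groups Mmp13 fell by 1.31 ± 0.21 from day 4 to day 8 (0.00266) and Mmp23 by 0.65 ± 0.16 (0.0463). The call of Mmp23 was lost without day 4 AREG replicate 1 (0.0559), day 4 PBS replicate 1 (0.117) or both (0.145).

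The ADAM and ADAMTS proteases, relatives of the MMPs that shed membrane proteins or cut proteoglycans and procollagen, were measured for 27 of 28 listed. On day 4, 5 fell with AREG, against 2.11% of all genes, and none rose, with a median of -0.15. Adam12, a protease of muscle precursors and stromal cells, measured 8.22, 8.64 and 8.30 with PBS and 7.43, 7.54 and 7.58 with AREG, and fell by 0.87 ± 0.15 (adjusted p = 0.0192). Adam8, found on leukocytes, fell by 0.89 ± 0.21 (0.0367), Adamts14, a procollagen propeptidase, by 0.72 ± 0.16 (0.0315) and Adamts6 by 0.54 ± 0.13 (0.039). The fifth was Adamts4, an aggrecanase, named after its value was seen (-0.60 ± 0.15, 0.0464). On day 4, 0 of the 27 passed without AREG replicate 1 or without both arrays numbered 1. There were 3 without PBS replicate 1 and 6 without day 8 AREG replicate 3. None of the 27 passed on day 8. Averaged over both days 3 were lower, Adam12, Adam8 and Adamts12, against 2.99% of all genes. The count was 0 without day 4 AREG replicate 1 or without both day 4 arrays numbered 1. From day 4 to day 8 with PBS, Adam12 fell by 0.99 ± 0.15 (0.00144) and Adamts4 by 0.92 ± 0.15 (0.00333), while Adamts20 rose by 0.70 ± 0.14 (0.0111), a call lost without both day 4 arrays numbered 1 (0.0536).

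Genes that activate, anchor or clear MMPs were measured for 18 of 20 listed. On day 4, 3 fell, against 2.11% of all genes, and none rose. Cd44, the hyaluronan receptor that also holds MMP9 at the cell surface, measured 8.68, 8.91 and 9.15 with PBS and 7.55, 7.87 and 7.71 with AREG, and fell by 1.21 ± 0.23 (adjusted p = 0.0218). Plaur, the urokinase receptor, fell by 0.56 ± 0.12 (0.0324), and Lrp1, an endocytic receptor for proteases and TIMPs, by 0.57 ± 0.14 (0.0478). None of the 18 passed without AREG replicate 1 or without both day 4 arrays numbered 1, and 4 did without day 8 AREG replicate 3. Plau, the urokinase that starts plasmin-driven activation of proenzymes, differed by -0.43 ± 0.19 (0.248) on day 4 and -0.38 ± 0.19 (0.657) on day 8. Reck, a membrane-anchored MMP inhibitor, was higher on all day 4 AREG arrays (0.22 ± 0.11, 0.295) and lower on all day 8 AREG arrays (-0.21 ± 0.11, 0.686) than on the PBS arrays, and neither difference passed. No gene of this list was called on day 8.

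The matrix proteins that MMPs cut were measured for 21 of 22 listed. On day 4 the list median was -0.36 beside 0.04 over all genes, and 13 of the 21 had all AREG arrays below all PBS arrays. Over all genes, 22.3% did not overlap in either direction. Col5a1, a fibril-nucleating collagen chain, was the 1 called (-0.49 ± 0.12, adjusted p = 0.0446), against 2.11% of all genes called lower. None passed without AREG replicate 1, PBS replicate 1 or both, and 8 did without day 8 AREG replicate 3. On day 8 none passed and the median was -0.28. Averaged over both days 2 of the 21 were lower, against 2.99% of all genes. Vcan, the proteoglycan versican, fell by 0.84 ± 0.20 (0.0363) and Fn1, fibronectin, by 0.74 ± 0.19 (0.0441). On day 8 AREG replicate 3 Fn1 measured 10.74, against 12.27 and 12.04 on the other AREG arrays and 12.32 to 12.41 with PBS. Without that array 5 of the 21 were lower for the mean, and the mean effects were -0.60 for Vcan (0.0139) and -0.50 for Fn1 (0.013). Without day 4 AREG replicate 1 neither passed (0.0945 and 0.102), nor without both day 4 arrays numbered 1 (0.126 and 0.148), and Fn1 did not without day 4 PBS replicate 1 (0.0667). The lists of matrix proteins and fibroblast markers share 4 genes. Egfr, the receptor of AREG, differed by -0.32 ± 0.14 (0.265) on day 4 and -0.22 ± 0.14 (0.749) on day 8.

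**Figure D5:**
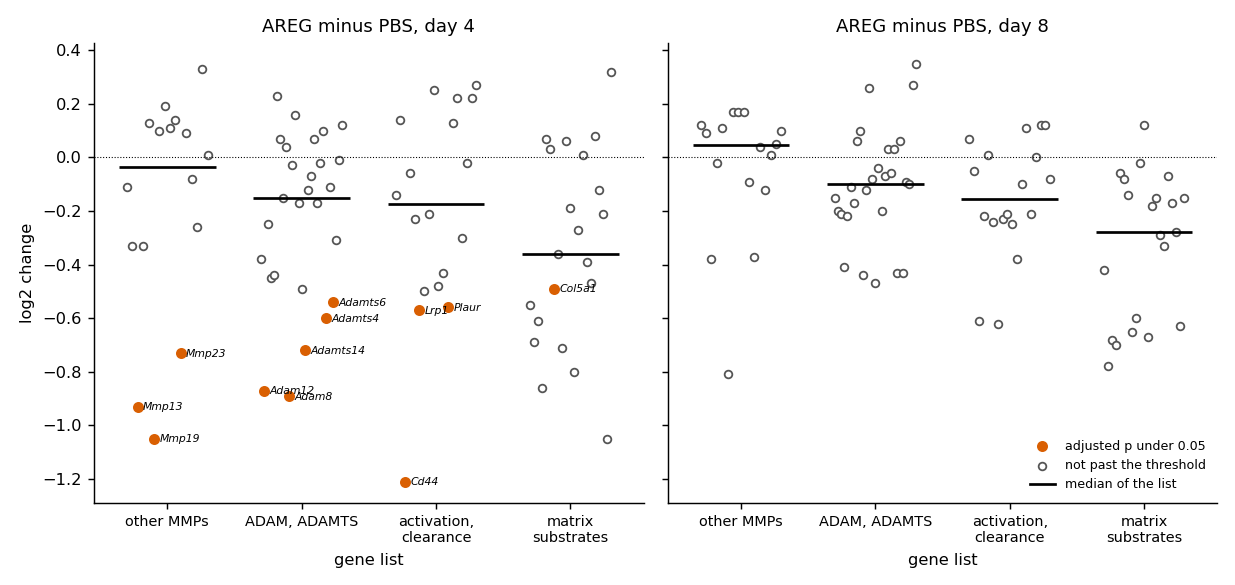
Difference in log2 intensity between AREG and PBS arrays (vertical axis, log2 units) on day 4 and day 8 for each measured gene of the lists of other MMPs, ADAM and ADAMTS proteases, activation and clearance genes and matrix substrates (horizontal axis); filled points passed a limma adjusted p of 0.05 and lines are list medians. All filled points are on day 4 and below 0, the lowest being Cd44 at -1.21.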

How the data were processed

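RNA of whole TA muscle was measured on Affymetrix whole-transcript mouse arrays, 3 in each of 4 groups. The deposited intensity values are linear, with summaries made by RMA in Affymetrix Power Tools, per the submitters' processing notes. Tool versions and build: not given in the sources used here. Of 24922 clusters, 21425 had 1 symbol, 1399 several and 2098 none in the platform annotation, and 21347 matched the RefSeq table. For 921 genes with several clusters the brightest was used, which gave 19752 genes.

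Log2 intensities, without a pseudocount, entered a linear model of the 4 group means in limma 3.58.1 (R 4.3.3; lmFit and eBayes, 12 arrays, 8 residual and 7.1 prior degrees of freedom), two-sided, with Benjamini-Hochberg adjustment over all 19752 genes and a threshold of 0.05. Errors are SEs of the fit. The number of arrays limits the precision.

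Members and gene lists were chosen with earlier results of these data known, so the tests are not independent support. Named were all 10 members, up to 4 called genes per pathway list and comparison, Reck, Mmp13, Mmp19, Plau, Plaur, Foxp3 and Egfr, selected markers, and the 3 nearest profiles of each called member.

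Same-numbered AREG and PBS arrays had residual correlations of 0.558, 0.201 and 0.511 on day 4 and -0.198, 0.123 and -0.003 on day 8. Arrays with different numbers ran from -0.486 to 0.27 on day 4. The pair numbered 2 did not stand out, since AREG replicate 2 correlated more with PBS replicate 3 (0.27). The reported fit has no block, and the replicate block is an alternative. Alternatives changed scaling, pseudocount, filter, clusters, variance model, weights, arrays and the block.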

Additional observations from a re-analysis of the deposited data

How the results depend on the processing

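With 3 arrays a group, most calls were lost in at least 1 of the fits that left out 1 array. With 5 members called on day 4 in the reported fit, a pseudocount of 32 left 2, eBayes with trend and robust options left 4, array weights gave 8, and leaving out both day 4 arrays numbered 1 (chosen after seeing the data) left 0. On day 8 (1 called), array weights gave 2, and 0 passed after median centring, quantile normalisation, a pseudocount of 32, a filter at the median level, the mean of clusters, eBayes with trend and robust options, the 6 arrays alone, the replicate block, or without both day 4 arrays numbered 1. For the mean effect (4), the pseudocount left 3, array weights gave 7 and leaving out those arrays 1. For the difference of effects (0), array weights gave 3. Between PBS groups (2), the filter, under which Mmp8 was not tested, and the pseudocount left 1 each, as did leaving out those arrays, while array weights gave 6 and the 6 arrays alone 4. Between AREG groups (0), array weights gave 4. Leaving out 1 array gave 0 to 6 calls on day 4, 0 to 1 on day 8, 2 to 6 for the mean, 0 to 0 for the difference, 1 to 4 between PBS groups and 0 to 1 between AREG groups. The replicate block, a paired fit, called the same 5 members on day 4, the same 4 for the mean and the same 2 between PBS groups, and ended the day 8 call of Mmp12. Over all genes it called 914 on day 4, against 573.

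Signs turned only for differences that were not called. On day 8, Timp2 was 0.03 with array weights and -0.27 to 0.05 with 1 array left out, and Timp3 was 0.00 after median centring and -0.29 to 0.13. For the difference of effects, Mmp9 was 0.02 after median centring, 0.01 with the pseudocount, 0.07 with array weights, 0.15 without both day 4 arrays numbered 1 and -0.14 to 0.07 with 1 array left out, Mmp2 ran from -0.05 to 0.37 and Mmp3 from 0.00 to 0.28. Between PBS groups Mmp2 ran from -0.15 to 0.06. Between AREG groups, Mmp2 was -0.11 without both day 4 arrays numbered 1 (-0.12 to 0.30 with 1 array left out), Mmp3 0.00 after quantile normalisation and 0.06 without those arrays (-0.22 to 0.06), Timp4 -0.24 with array weights and -0.05 without those arrays (-0.23 to 0.31), and Mmp14 ran from -0.34 to 0.26. The cause of these changes was not tested.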

Other observations

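The profiles nearest to each called member over the 12 arrays were found by the root-mean-square distance of mean-centred log2 intensities, as a description with no test. Other members and ribosomal, predicted (Gm), Rik and olfactory receptor genes were left out. Mmp12 itself spread by 1.00 log2 units about its mean. Its nearest genes were Il7r, the interleukin-7 receptor chain, at a distance of 0.35, Itgax, the integrin CD11c of dendritic cells and macrophages, at 0.55, and Ifi30, a lysosomal thiol reductase of antigen-presenting cells, at 0.56. Il7r differed with AREG by -1.46 on day 4 and -1.48 on day 8, Itgax by -1.09 and -1.01. Nearest to Mmp14 (spread 0.51) were Loxl1, a collagen and elastin cross-linking enzyme, at 0.13, Knl1, a kinetochore protein, at 0.14, and Mfap5, a microfibril protein, at 0.16.

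Timp1 (spread 0.88) was nearest to Gatm, an enzyme of creatine synthesis, at 0.26, Ddah1 at 0.26 and Rcn3, a protein of the endoplasmic reticulum, at 0.29. Timp4 (spread 0.59) was nearest to Aldh6a1, a mitochondrial enzyme of valine breakdown, at 0.20, Plin4, a lipid droplet protein, at 0.21 and Adhfe1 at 0.21. Timp3 (spread 0.35) was nearest to Asb15, a muscle ankyrin repeat protein, at 0.13, the Wnt receptor Fzd4 at 0.14 and Ube2g1 at 0.15. Mmp8 (spread 0.26) was nearest to Gas2l1 at 0.16, Fosl1 at 0.17 and Trpv5 at 0.17, distances not much smaller than its own spread.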
